A study of Rattus norvegicus with 16 samples.

Results

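The genes described here belong to the stress response of the endoplasmic reticulum (ER) and to its protein-folding machinery. They are Hspa5, Hsp90b1, Sdf2l1, Atf4, Xbp1, Ddit3, Dnajb9, Pdia4, Herpud1 and Creld2, 10 genes in all, and they were taken by gene name from the probe annotation of the arrays. A probe with such a name was found for 9 of the 10 genes, with 12 probes among 41012 on the array. Xbp1, which encodes the transcription factor spliced by the stress sensor IRE1, had no probe found under its name, and its expression was not analysed here. All 12 probes lay well above background on all 16 arrays, so each of the 9 genes entered the tests, among 21478 genes in all.

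Liver RNA of male Lewis rats was hybridised to 16 one-colour whole-genome arrays, 1 per sample. The groups were untreated rats of 3, 9, 12 and 18 months, with 3 arrays each, and of 24 months, with 4 arrays. The rats were housed free of specific pathogens with a daily light and dark cycle, and all had free food and water. The labels state neither whether each sample is a separate animal nor the hour of tissue collection, so p-values measure only the spread between these samples.

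The ER of the hepatocyte folds the plasma proteins that the liver secretes. When unfolded proteins gather there, the sensors IRE1, PERK and ATF6 raise the transcription of chaperones and of the machinery that removes misfolded proteins, and PERK slows translation through eIF2. Phosphorylated eIF2 favours translation of ATF4, so the amount of ATF4 protein is not set by Atf4 mRNA alone.

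Signal is given as log2 of the processed intensity minus the 75th percentile of its array, so a difference of 1 is a doubling, and levels of different probes are not compared. On each array 52.5% to 65.2% of all probes were well above background. Hepatocyte markers were above background on all arrays (10 of 10), with a mean log2 signal from 7.80 to 8.55. Results are also given without 3 arrays that correlated less well with those of their own age (12 months replicate 2, and replicates 3 and 4 of 24 months), called the arrays that stood apart. The median SD of a gene was 0.08 at 3 months, 0.29 at 12 months and 0.26 at 24 months, in log2 units. All 3-month arrays lay on slide 1, 1 of the 9-month arrays on slide 1 and the others on slide 2, and 1 of the 12-month arrays on slide 2. The 24-month arrays (slides 5, 6 and 7) and the 18-month arrays (slide 4) shared no slide with another age. The 3-month and 9-month arrays and 12 months replicate 2 were scanned on one day (scan day 1), the 24-month arrays on another (scan day 2), and the remaining 12-month arrays and the 18-month arrays on another again (scan day 3). The 24-month arrays shared their scan day with no other age, so for 24 against 3 and 24 against 18 months scan day and age cannot be told apart.

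The promoters of these genes are shown first, since several carry the element through which ATF6 and XBP1 raise transcription. In windows from 250 bases before the start of the gene to 50 after it (RefSeq, build GRCr8), 3 motifs were searched on both strands. The ER stress response element, ERSE, was searched as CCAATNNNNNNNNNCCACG, its second form, ERSE-II, as ATTGGNCCACG, and the element bound by ATF4 and C/EBP factors, CARE, as TGATGCAA. ERSE was present in 4 of the 10 windows, those of Hspa5, Hsp90b1, Xbp1 and Creld2, against 0.0657% of 33469 windows of the same length. Hsp90b1 held it on each strand. Herpud1 alone among the 10 held ERSE-II (0.0508% of windows) and CARE (0.795% of windows). The stretches with these matches follow on the strand of the gene, with the matched bases in capitals.

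Hspa5, chr3:38452958-38453006, plus strand: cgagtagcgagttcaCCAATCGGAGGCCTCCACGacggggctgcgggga
Hsp90b1, chr7:23012332-23012484, minus strand: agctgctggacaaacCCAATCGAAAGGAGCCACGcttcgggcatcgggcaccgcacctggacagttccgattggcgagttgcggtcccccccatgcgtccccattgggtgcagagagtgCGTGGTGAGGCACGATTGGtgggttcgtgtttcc
Xbp1, chr14:84604543-84604591, plus strand: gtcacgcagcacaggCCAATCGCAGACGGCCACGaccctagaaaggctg
Creld2, chr7:121789224-121789272, plus strand: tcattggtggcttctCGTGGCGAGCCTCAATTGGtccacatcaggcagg
Herpud1, chr19:10614806-10614906, minus strand: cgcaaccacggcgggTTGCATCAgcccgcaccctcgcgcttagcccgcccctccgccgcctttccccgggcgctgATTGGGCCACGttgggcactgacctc

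The ERSE of Hspa5 lay 43 to 25 bases before the start, that of Xbp1 65 to 47, and that of Creld2 145 to 127. In Hsp90b1 the matches lay 176 to 158 and 72 to 54 bases before the start. In Herpud1 the ERSE-II match lay 124 to 114 and the CARE match 184 to 177 bases before it. The windows of Sdf2l1, Atf4, Ddit3, Dnajb9 and Pdia4 held none of these letters, which says nothing of elements outside the window or spelled otherwise. A match is a description of the sequence and was not tested for binding.

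Across the 5 ages, 4 of the 9 genes differed by limma's F test with Benjamini-Hochberg adjustment over all genes, where 37.4% of all genes did. They were Herpud1 (adjusted p = 0.000288), Atf4 (0.00225), Sdf2l1 (0.00449) and Ddit3 (0.0289). The call of Ddit3 was lost in 8 of 26 alternatives, with adjusted p up to 0.157, and that of each of the other 3 in 0 of 26. Each had its own course: Herpud1 was high from 12 months on, Atf4 was high at 9 months, Sdf2l1 was high at 3 months and Ddit3 was low at 9 months. The other 5, among them the main chaperones Hspa5 (0.319) and Hsp90b1 (0.106), did not pass. Without the 3 arrays that stood apart, 5 of 9 passed, where 57.3% of all genes did.

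**Figure D1:**
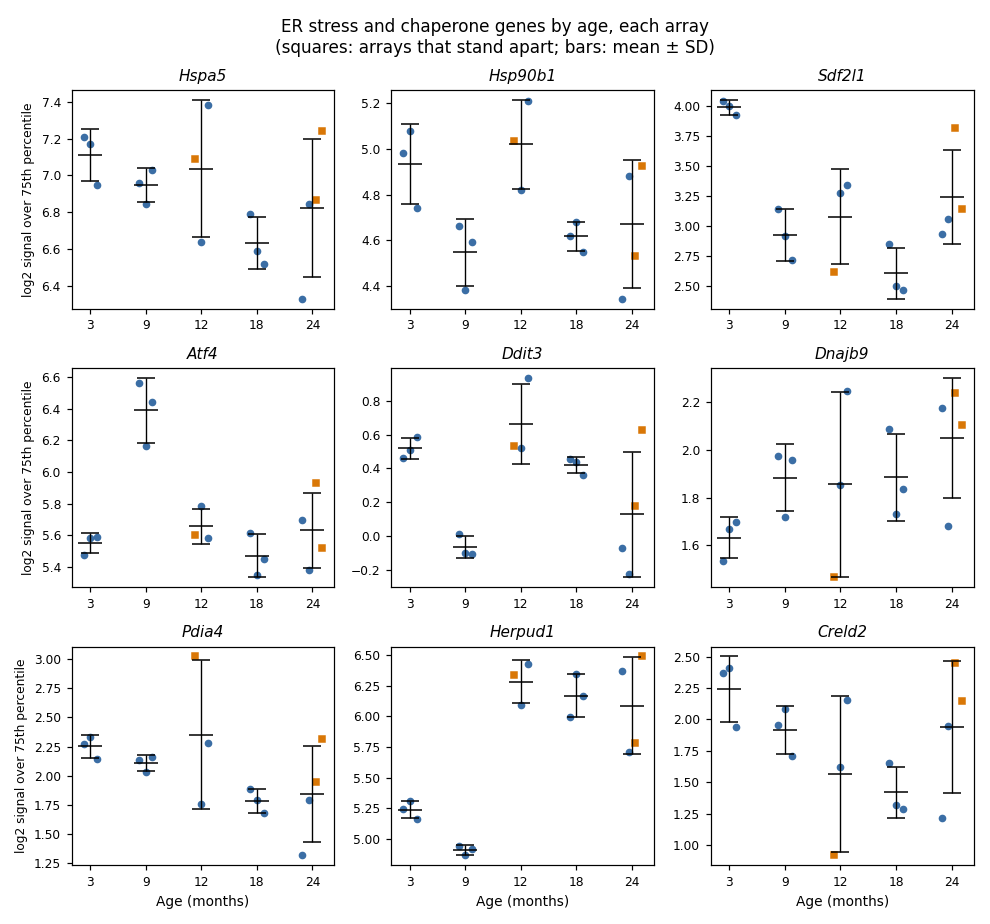
Log2 signal over the 75th percentile of the array for the 9 measured genes, by age in months. Each point is an array, orange squares are the 3 arrays that stood apart, and bars are mean ± SD; Herpud1 reads at least 5.71 on all arrays of 12 to 24 months and at most 5.31 at 3 and 9 months.

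Hspa5 encodes BiP, the Hsp70 chaperone that binds nascent chains in the ER and holds the stress sensors inactive. Its log2 signal was 7.21, 7.17 and 6.95 at 3 months, 6.96, 6.85 and 7.03 at 9 months, and 7.09, 6.64 and 7.38 at 12 months. It was 6.79, 6.59 and 6.52 at 18 months and 6.33, 6.84, 6.87 and 7.24 at 24 months. The ages overlapped except that all 18-month arrays lay below all 3-month and 9-month arrays. The lowest and the highest array, 24 months replicate 1 and 12 months replicate 4, differed 2.07-fold. Hspa5 averaged 6.82 ± 0.37 at 24 months (SD, n = 4), against 7.11 ± 0.14 at 3 months (n = 3). The difference of -0.29 on the log2 scale did not pass by limma (adjusted p = 0.398, 95% interval -0.72 to 0.15).

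Hsp90b1 encodes GRP94, the Hsp90 chaperone of the ER. It averaged 4.93 ± 0.17 at 3 months and 4.55 ± 0.15 at 9 months, then 5.02 ± 0.19 at 12 months, 4.62 ± 0.07 at 18 months and 4.67 ± 0.28 at 24 months (SD). All 9-month arrays lay below all 3-month arrays, and all 18-month arrays below all 12-month arrays, but neither difference passed by limma (adjusted p = 0.239 and 0.236). The second probe of Hsp90b1 averaged 3.28 ± 0.09, 2.90 ± 0.12, 3.47 ± 0.66, 2.72 ± 0.09 and 3.02 ± 0.35 from 3 to 24 months. On 12 months replicate 2 it read 4.20, above its value on every other array (at most 3.35), while the first probe there read 5.03, inside the range of its age.

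Pdia4, a protein disulfide isomerase that also goes by ERp72, averaged 2.25 ± 0.10 at 3 months and 2.11 ± 0.07 at 9 months, then 2.35 ± 0.64 at 12 months, 1.78 ± 0.10 at 18 months and 1.84 ± 0.42 at 24 months. The wide spread at 12 months came with 12 months replicate 2, which had 3.02, against 1.76 and 2.28 on the other arrays of that age. At 24 months the values were 1.31, 1.79, 1.95 and 2.31, which overlapped the 3-month values of 2.27, 2.33 and 2.15. The difference of 24 and 3 months was -0.41 (adjusted p = 0.338 by limma). Without the 3 arrays that stood apart it was -0.70 and passed (adjusted p = 0.0153).

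Creld2, a secreted ER protein with isomerase activity that rises under ER stress, averaged 2.24 ± 0.26 at 3 months and 1.92 ± 0.19 at 9 months, then 1.56 ± 0.62 at 12 months, 1.42 ± 0.20 at 18 months and 1.94 ± 0.53 at 24 months. Its lowest array was 12 months replicate 2, with 0.92, and its highest was 24 months replicate 3, with 2.45. Both are arrays that stood apart. None of the 5 comparisons run passed by limma, and the smallest adjusted p among them, for 24 against 18 months, was 0.220. The ages with its lowest and highest mean, 18 and 3 months, were not compared.

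Dnajb9 encodes ERdj4, a J-domain partner of BiP that keeps IRE1 inactive. It averaged 1.63 ± 0.09 at 3 months and 1.88 ± 0.14 at 9 months, then 1.86 ± 0.39 at 12 months, 1.88 ± 0.18 at 18 months and 2.05 ± 0.25 at 24 months. The 24-month arrays had 2.17, 1.68, 2.24 and 2.10, against 1.53, 1.67 and 1.70 at 3 months, so that 24 months replicate 2 lay among the 3-month arrays. The difference of 0.42 did not pass by limma (adjusted p = 0.158). The second Dnajb9 probe differed by 0.39 (adjusted p = 0.334).

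Sdf2l1, a partner of ERdj3 in the BiP chaperone cycle, had a lower mean at every later age than at 3 months. The signal was 4.04, 4.0 and 3.92 at 3 months, 3.14, 2.91 and 2.71 at 9 months, and 2.62, 3.27 and 3.34 at 12 months. It was 2.85, 2.50 and 2.46 at 18 months and 2.94, 3.06, 3.81 and 3.14 at 24 months. The 3 arrays of 3 months were the highest of the 16, and the nearest to them was 24 months replicate 3. The probe for Sdf2l1 is given below with those of the other called genes.

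Sdf2l1 averaged 2.92 ± 0.22 at 9 months, against 3.99 ± 0.06 at 3 months (SD, n = 3 each). It was 2.09-fold lower at 9 months, with a log2 difference of -1.07 ± 0.24 (SE, adjusted p = 0.0172 by limma). Within slide 1 the 1 array of 9 months differed from the 3 of 3 months by -1.08. The call was lost in 5 of 31 alternatives, among them leaving out any 3-month array, with the adjusted p at most 0.0855. At 24 months Sdf2l1 averaged 3.24 ± 0.39 (n = 4), and it was 1.68-fold lower than at 3 months (log2 difference -0.75, adjusted p = 0.0373). With slide as a random block that difference was -0.81 and did not pass (adjusted p = 0.259), and the call was lost in 10 of 28 alternatives.

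Sdf2l1 was also 1.55-fold higher at 24 months, with 3.24 ± 0.39, than at 18 months, with 2.60 ± 0.21 (adjusted p = 0.0479 by limma). Without 24 months replicate 3 the log2 difference was 0.44 in place of 0.64 and did not pass (adjusted p = 0.107), and the call was lost in 22 of 28 alternatives. In tissue RNA, fewer cells of a type and less RNA per cell cannot be told apart. Of the 10 plasma and B cell markers 5 were measured. The mean of the 5 was -1.03 on 24 months replicate 3, against -4.25 to -3.08 on the other 24-month arrays and -4.13 to -3.74 at 18 months. Of 6 neutrophil markers, 5 were measured, without Elane, and their mean was -3.44 to -2.99 at 9 months, against -0.85 to -0.43 at 3 months. At 9 months 2 to 4 of these 5 were above background, against all 5 at 3 months. Between 24 and 18 months 5 of 6 T and NK cell markers and 5 of 8 Kupffer cell and macrophage markers were higher by limma. So were 4 of 5 cholangiocyte markers, and 0 in these lists were lower, where 10.8% of all genes were higher. Of 17 pancreatic acinar markers 10 were measured, and 7 were lower and 1 higher, where 25.8% of all genes passed. On 24-month arrays 5 to 8 of the 10 were above background, against 9 at 18 months. Of the 6 T and NK cell markers 4 to 5 were above background at 18 months, against all 6 at 24 months. A marker near the floor at one age could pass the filter through another age where it is high, which favours such calls. Endothelial markers were 2 of 6 higher and 0 lower, and stellate cell and fibroblast markers 2 of 7 higher and 1 lower. Of 5 plasma and B cell markers 1 was higher and 1 lower, and of 5 neutrophil markers 0 were higher and 1 lower. The T and NK cell mean was -0.54 to 0.85 at 24 months, against -2.48 to -2.13 at 18 months, the Kupffer cell mean 1.42 to 2.26, against 0.98 to 1.30, and the cholangiocyte mean -1.28 to -0.66, against -2.46 to -2.39. On 24 months replicate 3 the hepatocyte mean was the lowest of the 16 arrays, with 7.80, and the Kupffer cell, endothelial and neutrophil means were the highest, with 2.26, 1.58 and -0.30. The part of these markers in the Sdf2l1 differences was not tested.

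Herpud1, a membrane protein that joins the ubiquitin ligase complex of ER-associated degradation, showed the largest step among the 9 genes. Its signal was 5.24, 5.31 and 5.16 at 3 months, 4.94, 4.86 and 4.92 at 9 months, and 6.34, 6.09 and 6.43 at 12 months. It was 5.99, 6.35 and 6.17 at 18 months and 6.37, 5.71, 5.78 and 6.49 at 24 months. All arrays of 12, 18 and 24 months lay above all arrays of 3 and 9 months. Among the arrays of scan day 1, 12 months replicate 2 had 6.34, against at most 5.31 at 3 and 9 months. Of the Kupffer cell and macrophage markers 4 of 8 were higher and 1 lower at 24 than at 3 months by limma. Of the T and NK cell markers 2 of 6 were higher and 1 lower, where 4.24% of all genes were higher and 9.07% lower. Endothelial markers were 2 of 6 higher and 0 lower, and cholangiocyte markers 1 of 5 higher and 0 lower. Pancreatic acinar markers were 4 of 10 lower and 1 higher, stellate cell and fibroblast markers 3 of 7 lower and 0 higher, and neutrophil markers 2 of 5 lower and 0 higher. Between 12 and 9 months 1 of 6 T and NK cell markers and 1 of 5 plasma and B cell markers were higher and 0 lower. Cholangiocyte markers were 1 of 5 lower and 0 higher there, and stellate cell and fibroblast markers 1 of 7 lower and 0 higher. Of all genes 3.18% were higher and 3.1% lower. At 9 months 1 of the 5 plasma and B cell markers was above background on each array, against 2 to 5 at 12 months. For T and NK cell markers it was 4 to 6 of 6, against 5 to 6. At 24 months 2 to 4 of the 5 neutrophil and 5 to 8 of the 10 acinar markers were, against 5 and 8 to 9 at 3 months. A marker near the floor at one age could pass the filter through another where it is high, which favours such calls. The part of these markers in the Herpud1 differences was not tested.

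Herpud1 averaged 6.29 ± 0.18 at 12 months, against 4.91 ± 0.04 at 9 months (SD, n = 3 each), and was 2.60-fold higher (log2 difference 1.38 ± 0.19 SE, adjusted p = 0.00227 by limma). Within slide 2 the 1 array of 12 months lay 1.41 above the 2 of 9 months, and with scan day as a block the difference was 1.43 (0.00469). At 24 months it averaged 6.09 ± 0.40 (n = 4), against 5.24 ± 0.07 at 3 months, and was 1.80-fold higher (log2 difference 0.85, adjusted p = 0.00723). That difference stayed at 0.85 with slide as a random block but did not pass (adjusted p = 0.240), and it was 0.53 after normexp background correction (0.461). The call for 24 against 3 months was lost in 3 of 28 alternatives. The call for 12 against 9 months was lost in 1 of 31, with the adjusted p at most 0.0852. The second Herpud1 probe gave 0.95 for 12 against 9 months (adjusted p = 0.0264) and 0.87 for 24 against 3 months (0.0151). Neither 18 against 12 months (-0.12) nor 24 against 18 months (-0.08) passed.

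Atf4, the transcription factor of the PERK branch, was high at 9 months alone. Its signal was 5.48, 5.58 and 5.59 at 3 months, 6.56, 6.16 and 6.44 at 9 months, and 5.60, 5.78 and 5.58 at 12 months. It was 5.61, 5.34 and 5.45 at 18 months and 5.69, 5.38, 5.93 and 5.52 at 24 months. The 3 arrays of 9 months were the highest of the 16, above 24 months replicate 3. Atf4 averaged 6.39 ± 0.20 at 9 months, against 5.55 ± 0.06 at 3 months (SD, n = 3 each), and was 1.79-fold higher (log2 difference 0.84 ± 0.15 SE, adjusted p = 0.00666 by limma). It was 1.66-fold lower at 12 months, with 5.66 ± 0.11, than at 9 months (log2 difference -0.74, adjusted p = 0.0149).

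Within slide 1 the 1 array of 9 months lay 0.62 above the 3 of 3 months for Atf4, and within slide 2 the 1 array of 12 months differed from the 2 of 9 months by -0.90. The step from 3 months kept its call in 30 of 31 alternatives, and after normexp correction it was 0.81 (adjusted p = 0.0631). The step after 9 months lost its call in 7 of 31, with adjusted p up to 0.113. Between 9 and 3 months 3 of 6 T and NK cell markers and 2 of 5 neutrophil markers were lower by limma, where 3.2% of all genes were. None in these lists was higher. Hepatocyte markers were 1 of 10 higher and 0 lower, and cholangiocyte markers 1 of 5 higher and 0 lower. Kupffer cell and macrophage markers were 2 of 8 higher and 1 lower, and pancreatic acinar markers 1 of 10 higher and 1 lower. Stellate cell and fibroblast markers were 1 of 7 lower and 0 higher, and endothelial markers 1 of 6 lower and 0 higher. Of all genes 1.94% were higher. The hepatocyte mean was 8.47 to 8.55 at 9 months, against 8.16 to 8.37 at 3 months. On the 9-month arrays 2 to 4 of the 5 neutrophil markers and 4 to 6 of the 6 T and NK cell markers were above background. At 3 months all 5 and all 6 were. A marker near the floor at 9 months could pass the filter through an age where it is high, which favours such calls. The T and NK cell mean was -2.62 to -1.99 at 9 months, against -0.74 to -0.56 at 3 months. Of the plasma and B cell markers 0 of 5 passed, with a mean of -5.08 to -4.96 at 9 months, where 1 of the 5 was above background on each array, against -3.49 to -3.31 at 3 months, where 4 were. The part of these markers in the Atf4 differences was not tested. At 24 months, Atf4 differed from 3 months by 0.08 (adjusted p = 0.772).

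Ddit3 encodes CHOP, a pro-apoptotic factor whose gene ATF4 induces under stress. Its signal was 0.46, 0.51 and 0.59 at 3 months, 0.01, -0.10 and -0.11 at 9 months, and 0.54, 0.52 and 0.93 at 12 months. It was 0.45, 0.44 and 0.36 at 18 months and -0.07, -0.22, 0.18 and 0.63 at 24 months. All 9-month arrays lay below all arrays of 3, 12 and 18 months, while the 24-month arrays overlapped those of each other age, with replicate 4 the highest of its age. Ddit3 was 1.66-fold higher at 12 months, with 0.66 ± 0.23, than at 9 months, with -0.06 ± 0.07 (log2 difference 0.73, adjusted p = 0.0357 by limma). The call was lost in 14 of 31 alternatives, with adjusted p up to 0.253, among them scan day as a block (0.124).

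At 9 months Ddit3 lay below 3 months by a log2 difference of -0.58 (adjusted p = 0.0925), while Atf4 lay above by 0.84. Both comparisons rest on the same arrays. The Ddit3 difference of 24 and 3 months was -0.39 (adjusted p = 0.165). Without 24 months replicate 4 it was -0.56 and passed (0.0167), and without the 3 arrays that stood apart it was -0.67 (0.00384).

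Probes of the 4 genes that differed with age are shown because each value rests on a single stretch of 60 bases. They are given as the scanner files list them, with the positions the files name in build rn4. For Herpud1 the second probe is printed, not the one behind the values by age. Its differences are those given above for the second probe. The span of the Ddit3 probe is longer than the probe itself.

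Sdf2l1, chr11:85879815-85879874: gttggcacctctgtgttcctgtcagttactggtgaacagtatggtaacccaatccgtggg
Atf4, chr7:118538840-118538899: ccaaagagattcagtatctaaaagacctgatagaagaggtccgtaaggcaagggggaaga
Ddit3, chr7:67251675-67252036: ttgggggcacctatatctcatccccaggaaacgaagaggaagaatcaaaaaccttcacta
Herpud1, chr19:11040019-11040078: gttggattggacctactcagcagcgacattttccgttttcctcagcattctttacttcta

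Counted by comparison, 0 to 3 of the 9 genes were called, and the calls went in both directions. For 24 against 3 months 2 of 9 passed by limma, Herpud1 higher and Sdf2l1 lower, where 13.3% of all genes passed, 4.24% higher and 9.07% lower. With slide as a random block 0 of 9 passed (1.45% of all genes; 2 of 9 before adjustment), and without the 3 arrays that stood apart 4 of 9 did (23.8% of all genes). Between 9 and 3 months 2 passed, Atf4 higher and Sdf2l1 lower, where 5.14% of all genes did, 1.94% higher and 3.2% lower. Between 12 and 9 months 3 passed, Herpud1 and Ddit3 higher and Atf4 lower, where 6.28% did, 3.18% higher and 3.1% lower.

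For 18 against 12 months 0 of 9 passed by limma, where 1.39% of all genes did. Before adjustment Hsp90b1 alone passed there (unadjusted limma p = 0.0318, n = 3 each, from the model over all genes, not an exact test). Without the 3 arrays that stood apart Sdf2l1 passed after adjustment (0.0374). Between 24 and 18 months Sdf2l1 alone passed, and it was higher, where 25.8% of all genes passed, 10.8% higher. Neighbouring comparisons share the arrays of an age, so they are not independent of each other.

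The median log2 difference of the 9 genes was -0.29 for 24 against 3 months, beside -0.04 over all genes. It was -0.32 for 9 against 3 months, beside 0.04, and 0.15 for 12 against 9 months, beside -0.01. It was -0.24 for 18 against 12 months, beside -0.06, and 0.16 for 24 against 18 months, beside 0.05. Arrays of both ages did not overlap for 6 of the 9 genes at 9 against 3 months, 4 lower and 2 higher, where 41% of all genes did not overlap. This held for 2 of 9 at 24 against 3 months (29% of all genes), 4 at 12 against 9 months (25.8%), 2 at 18 against 12 months (25.3%) and 1 at 24 against 18 months (35.4%).

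**Figure D2:**
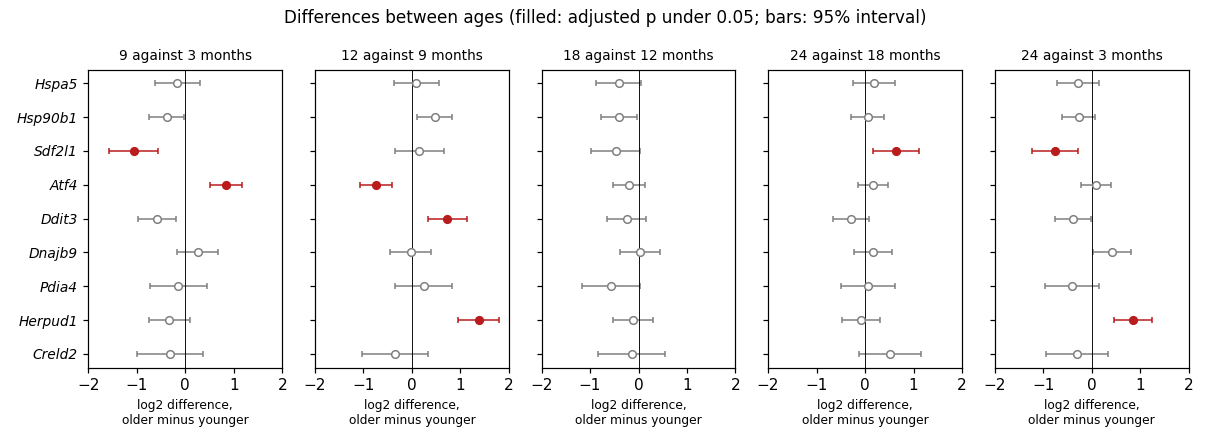
Log2 difference between ages, older minus younger, for the 9 genes, in 1 panel per comparison. Points are limma estimates, bars are 95% intervals, and filled points passed at an adjusted p under 0.05; for 18 against 12 months none is filled.

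The genes with 2 probes allow a check of the signal within each array. Over the 16 arrays the probes of Herpud1 correlated with r = 0.87, those of Dnajb9 with r = 0.85 and those of Hsp90b1 with r = 0.76. For Hsp90b1 and Herpud1 the array farthest from the common difference was 12 months replicate 2, and without it r was 0.85 and 0.93. The probes share the RNA sample and the array, so these values describe the probes and are no test of age.

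**Figure D3:**
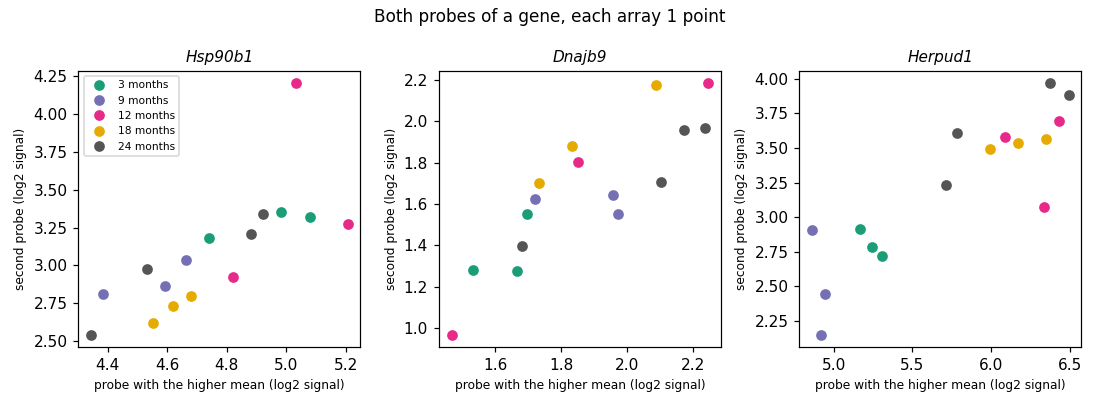
Log2 signal of the second probe against the probe with the higher mean for Hsp90b1, Dnajb9 and Herpud1, with 1 point per array and colour by age. The 12-month point far above the others in the Hsp90b1 panel is replicate 2, with 4.20 on the second probe.

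Hspa5 varied from array to array with several other chaperones. Among 9348 named genes ranked by Pearson correlation with Hspa5 over 16 arrays, the nearest were Hyou1, the large Hsp70-like partner of BiP (r = 0.89), and Ppib, the ER cyclophilin (0.88). The next were Rps6 (0.86), Ptma (0.86), Rpn1 (0.86), C6 (0.85), Rps14 (0.85), Rab12 (0.84), C8a (0.84) and Tmem50a (0.84). Rpn1 is a subunit of oligosaccharyltransferase, C6 and C8a are secreted complement components, and Rps6 and Rps14 are ribosomal proteins. Of these 10, 3 are in the ER lists described below. The arrays share age, slide and scan, and the values are descriptive.

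Of the genes described here, Pdia4 came nearest to Hspa5 (rank 18, r = 0.80), with r = 0.94 without the 3 arrays that stood apart. Hsp90b1 had r = 0.75 with and without them. Creld2 had r = 0.59, and 0.89 without the 3 arrays. Over the 16 arrays Herpud1 had r = -0.21 with Hspa5, Dnajb9 -0.09 and Atf4 0.06, and without the 3 arrays the values were -0.44 for Herpud1, -0.12 for Dnajb9 and 0.14 for Atf4. The correlation of Sdf2l1 with Creld2 was 0.79, and 0.78 without the 3 arrays. Atf4 and Herpud1 gave r = -0.63 over the 16 arrays.

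**Figure D4:**
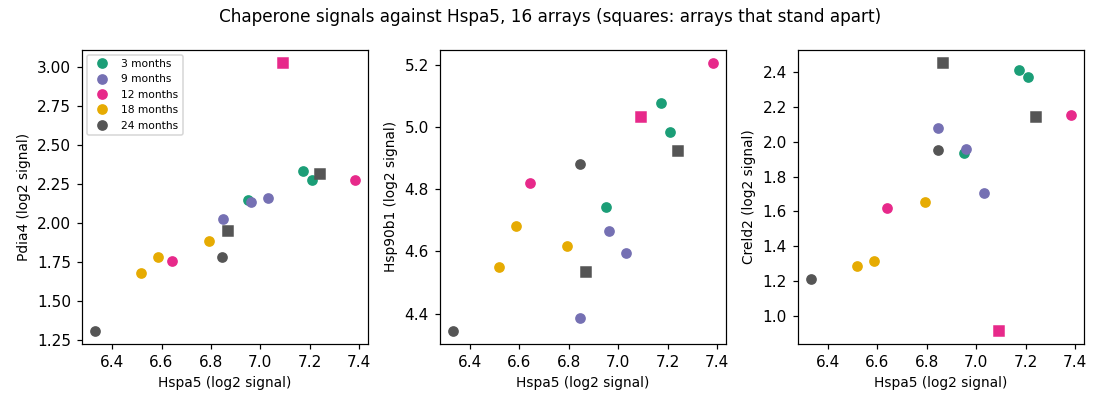
Log2 signal of Pdia4, Hsp90b1 and Creld2 against that of Hspa5, 1 point per array, coloured by age, with squares for the 3 arrays that stood apart. The 12-month square, replicate 2, lies above the other points for Pdia4 (3.02) and below them for Creld2 (0.92).

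Other genes of the same machinery were counted from lists. The ER folding list holds chaperones and oxidoreductases of the ER beside the genes above, and 26 of its 28 genes were measured. Over the 5 ages 5 of the 26 passed by limma's F test, against 37.4% of all genes: Pdia5, Calr, Pdia6, Ero1b and Txndc5. Of these 26, 3 were lower and 1 was higher at 24 than at 3 months, where 9.07% of all genes were lower and 4.24% higher, and 22 did not pass. The median log2 difference of the 26 was -0.20, beside -0.04 over all genes. Relative to 3 months, the mean was lower for 16 of the 26 at 9 months and 18 at 12 months, then for 20 at 18 months and 21 at 24 months. Over all genes the share below the 3-month mean was 44.2% at 9 months and 48.2% at 12 months, then 54.1% at 18 months and 54.4% at 24 months. The 4 counts share the 3-month arrays.

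Pdia6, a disulfide isomerase that also attenuates the stress sensors, averaged 5.59 ± 0.19 at 24 months, against 6.32 ± 0.03 at 3 months (log2 difference -0.74, adjusted p = 0.0105 by limma). Calr, the calcium-binding lectin chaperone calreticulin, averaged 5.65 ± 0.22 at 24 months, against 6.23 ± 0.08 at 3 months (-0.58, 0.0109). Pdia5, another disulfide isomerase, averaged 4.52 ± 0.23, against 4.99 ± 0.04 (-0.47, 0.0398). Calr and Pdia5 had their lowest mean at 18 months, with 5.16 ± 0.17 and 3.90 ± 0.03, and both were higher at 24 than at 18 months (0.49 and 0.62, adjusted p = 0.015 and 0.00509). Sdf2l1 likewise had its highest mean at 3 months and its lowest at 18 months.

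Txndc5, a thioredoxin-domain protein of the ER, went the other way, with 2.06 ± 0.17 at 24 months, against 1.46 ± 0.12 at 3 months (log2 difference 0.60, adjusted p = 0.00965 by limma). Ero1b, an oxidase that recharges disulfide isomerases, was higher at 12 months, with 0.37 ± 0.09, than at 9 months, with -0.31 ± 0.08 (0.68, 0.0249). Without the 3 arrays that stood apart, 11 of the 26 folding genes passed the F test, where 57.3% of all genes did, and for 24 against 3 months 3 were again lower and 1 higher.

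**Figure D5:**
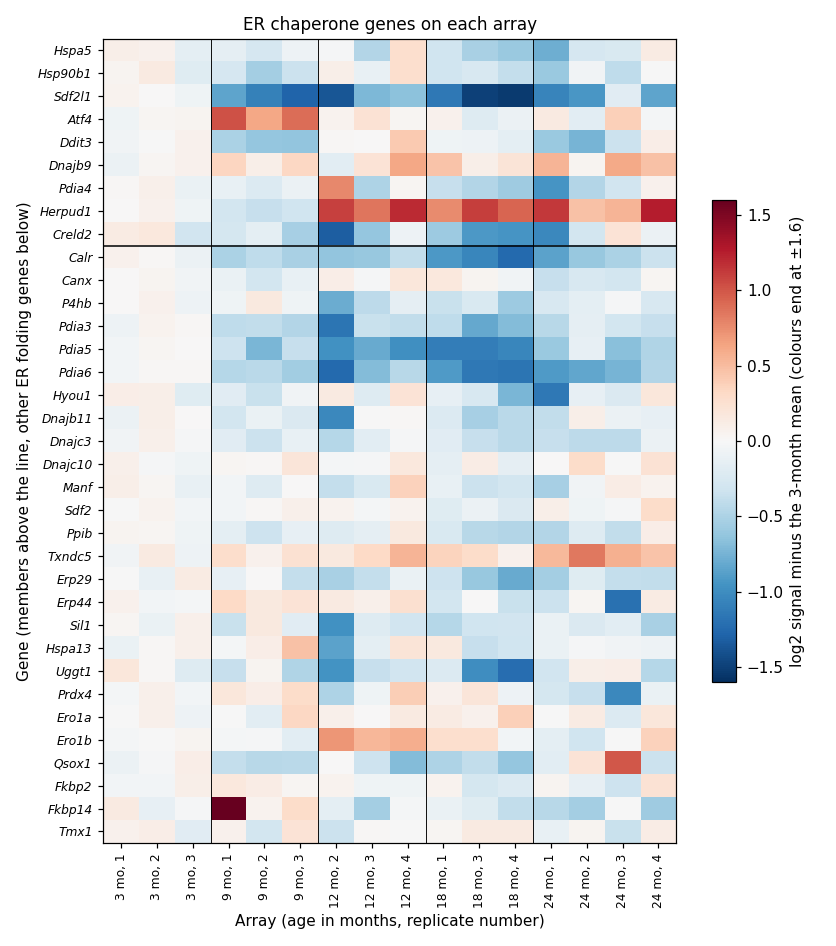
Log2 signal minus the 3-month mean on each of the 16 arrays, for the 9 genes (above the line) and the 26 other measured ER folding genes (below it), in columns by age and replicate number. Red is higher and blue is lower than at 3 months; Sdf2l1, Calr, Pdia5 and Pdia6 are blue from 9 months on, and Herpud1 is red from 12 months on.

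In the list of ER-associated degradation, the pathway that Herpud1 serves, 23 of 25 genes were measured. Of these, 3 passed the F test, against 37.4% of all genes: Derl3, Ubxn4 and Edem3. Derl3 lay above background on 13 arrays but not on the others. Its mean was lowest at 9 months, and its probe could pass the filter through another age, which favours this call. For 24 against 3 months 0 of the 23 passed by limma (3 before adjustment), where 13.3% of all genes did, with a median log2 difference of -0.06. The counts were likewise 0 of 23 for 9 against 3 months (1 before adjustment), 12 against 9 (5) and 18 against 12 (2), where 5.14%, 6.28% and 1.39% of all genes passed. Man1b1, the ER mannosidase that marks glycoproteins for degradation, was higher at 24 months, with 3.61 ± 0.13, than at 18 months, with 3.23 ± 0.08 (log2 difference 0.38, adjusted p = 0.0318). Among ubiquitin ligase partners of Herpud1, Syvn1 differed by -0.04 (0.878) and Sel1l by -0.32 (0.215) between 24 and 3 months. Both were chosen for display after their values were seen. Without the 3 arrays that stood apart, 3 of the 23 were higher and 2 lower for 24 against 3 months, where 23.8% of all genes passed.

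Of the list of sensors and their processing, 15 of 16 genes were measured, without the IRE1 gene Ern1, and 5 passed the F test, against 37.4% of all genes. Bak1, the pro-apoptotic protein that also acts at IRE1, averaged 0.20 ± 0.16 at 9 months, against 1.61 ± 0.04 at 3 months (log2 difference -1.40, adjusted p = 0.00372 by limma). Bak1 averaged 1.20 ± 0.43 at 24 months, against -0.09 ± 0.16 at 18 months (1.28, 0.000739).

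Creb3, a transmembrane factor of the ATF6 kind, was higher at 24 months, with 3.46 ± 0.14, than at 18 months, with 3.06 ± 0.04 (0.40, adjusted p = 0.0167 by limma). Creb3l3, its liver-rich relative, passed the F test (0.0176), with means of 6.19 ± 0.09, 6.43 ± 0.19, 7.20 ± 0.45, 6.98 ± 0.20 and 6.69 ± 0.34 from 3 to 24 months. Creb3l2, which also passed the F test, passed for 24 against 3, 9 against 3, 12 against 9 and 24 against 18 months. It lay above background on 10 of 16 arrays, so no fold is given. Its mean was lowest at 9 and 24 months, and its probe could pass the filter through the other ages, which favours these calls.

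The kinases of eIF2 number 4, and all were measured. Eif2ak2, the kinase activated by double-stranded RNA, was lower at 12 months, with 0.88 ± 0.28, than at 9 months, with 1.76 ± 0.17 (log2 difference -0.88, adjusted p = 0.0113 by limma), and passed the F test. Eif2ak3, which encodes PERK, was called for 24 against 18 months (0.0175) but lay above background on 12 of 16 arrays, so no fold is given. Its mean was lowest at 18 months, and its probe could pass the filter through another age, which favours this call. Of the 4, Eif2ak2 alone passed the F test, against 37.4% of all genes. For 24 against 3 and 9 against 3 months 0 passed by limma (1 in each before adjustment), where 13.3% and 5.14% of all genes did.

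Targets of ATF4 and CHOP were listed to read beside Atf4, and 27 of 33 were measured. At 9 against 3 months, where Atf4 rose, 0 of the 27 were higher by limma (3 before adjustment) and 2 were lower, where 1.94% of all genes were higher and 3.2% lower, and their median log2 difference was -0.04, beside 0.04 over all genes. Pck2, the mitochondrial form of phosphoenolpyruvate carboxykinase, averaged 1.20 ± 0.19 at 9 months, against 2.02 ± 0.13 at 3 months (-0.82, adjusted p = 0.00639 by limma). The other was Mthfd2, a mitochondrial folate enzyme, which lay above background on 5 of 16 arrays, so no fold is given. A probe could pass the filter through an age where it is high, which favours this call, and nothing is read from it. Asns, asparagine synthetase, averaged -1.91 ± 0.15 at 9 months, against 0.01 ± 0.26 at 3 months, a difference of -1.92 that did not pass (0.0765). Cebpg (0.51, adjusted p = 0.0579) and Fgf21 (1.74, 0.300) lay above 3 months and did not pass either. Fgf21 did not pass the F test (adjusted p = 0.205) and was named outside the rule given below. Without the 3 arrays that stood apart, 3 of the 27 were higher and 4 lower, where 15.2% of all genes passed.

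Over the 5 ages 8 of the 27 targets passed by limma's F test, against 37.4% of all genes, which were Cth, Mthfd2, Cebpg, Pck2, Phgdh, Sesn2, Asns and Cebpb. Cth, cystathionine gamma-lyase, averaged 4.23 ± 0.04 at 3 months and 4.63 ± 0.26 at 9 months, then 2.39 ± 0.30 at 12 months, 2.02 ± 0.61 at 18 months and 2.79 ± 0.37 at 24 months. It was 4.74-fold lower at 12 than at 9 months (log2 difference -2.25, adjusted p = 0.00132). Phgdh, the first enzyme of serine synthesis, averaged 2.56 ± 0.62 at 24 months, against 0.64 ± 1.35 at 18 months (1.92, 0.0246). Cebpg, a dimer partner of ATF4, averaged 2.11 ± 0.17 at 24 months, against 2.79 ± 0.19 at 18 months (-0.68, 0.00232).

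In the list of the translocon and secretory path 37 of 40 genes were measured and 3 passed the F test, against 37.4% of all genes. Sec11c, a signal peptidase subunit, averaged 5.09 ± 0.27 at 24 months, against 5.58 ± 0.06 at 3 months (log2 difference -0.49, adjusted p = 0.0344 by limma). It was higher at 24 than at 18 months, with 5.09 ± 0.27 and 4.59 ± 0.17 (0.50, 0.0199). Ssr3, of the translocon-associated complex, averaged 3.85 ± 0.25 at 24 months, against 4.33 ± 0.11 at 18 months (-0.48, 0.029), and Sar1b, the GTPase of COPII vesicles, 5.29 ± 0.34, against 5.88 ± 0.03 (-0.59, 0.0208). Sec23a, of the COPII coat, passed the F test (0.0372), with means of -0.31, -0.04, 0.33, 0.44 and 0.18 from 3 to 24 months.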

How the data were processed

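Per the file headers, Agilent Feature Extraction (version 10.7.3.1) gave the deposited intensity columns (processed, mean and background signal) and the flag columns (other), without normalization between arrays. The authors' deposited series table, in log2, had nearly equal medians, from 4.92 to 4.94, and its normalization is not given in the sources used here. Per the labels' protocols a microRNA labelling kit was used, while the arrays carry mRNA probes, and this was not resolved.

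Processed signals were log2-transformed, and from each array its 75th percentile was subtracted. Spots flagged as outliers were left out (37 values missing), and spots of a probe were averaged. Probes were kept when well above background on every array of some age (25682 of 41012). A gene was read from its kept probe with the highest mean. A mean per age was fitted to all 16 arrays with limma 3.58.1 (R 4.3.3), two-sided, with Benjamini-Hochberg adjustment over 21478 genes and a threshold of 0.05. The named genes were all members with all probes, up to 8 called genes a list for the F test, up to 4 a comparison, and the 10 nearest to Hspa5; 1 gene that the rule names is not reported here. Fgf21, Syvn1 and Sel1l were named outside this rule. Members and lists were chosen with earlier results of these data known. Figures used matplotlib 3.10.9. The number of arrays limits the precision.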

Additional observations from a re-analysis of the deposited data

How the results depend on the processing

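No called value of the 4 genes changed direction in any alternative run. The main counts of called members were 2 for 24 against 3 months, 2 for 9 against 3, 3 for 12 against 9, 0 for 18 against 12, 1 for 24 against 18 and 4 over all ages. After normexp correction (offset 50) the counts were 1 for 24 against 3 months, where 2.27% of all genes passed, and 1 for 9 against 3 (1.58%). They were 0 for 12 against 9 (0.773%) and 0 for 24 against 18 (4.54%). The count for 24 against 3 months was 1 with no filter (7.07% of all genes) and with the replicate block (9.88%). It was 0 with slide as a random block (1.45%) or only the ages compared (9.45%), and 4 without the 3 arrays that stood apart (23.8%). That for 9 against 3 months was 4 with only the ages compared, where 19.2% of all genes passed. That for 12 against 9 months was 1 with the replicate block (1.7% of all genes) and with only the ages compared (1.03%). That for 18 against 12 months was 1 without the 3 arrays (2.27% of all genes). That for 24 against 18 months was 0 after quantile normalization and with the series table (26.3% of all genes in each). It was also 0 with no filter (15.1%), single probes (23.9% of probes), slide as a random block (4.52%), the replicate block (20.3%) and only the ages compared (19.4%). Leaving out 1 array at a time gave 1 to 2 for 24 against 3 months, where 7.31% to 17.8% of all genes passed. It gave 1 to 3 for 9 against 3 (2.25% to 7.58%) and 1 to 3 for 12 against 9 (2.25% to 10%). It gave 0 to 1 for 24 against 18 (18.1% to 32.1%) and 3 to 4 over all ages (29.2% to 45.4%). Fewer arrays entered the fits that left arrays or ages out, and for the others the cause was not tested. Atf4 for 24 against 3 months, not called (0.082), was -0.252 after normexp correction, -0.054 with slide as a random block and -0.0102 without the 3 arrays, and it ranged from -0.0173 (without 24 months replicate 3) to 0.165 with 1 array left out.

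Over all genes, calls for 24 against 3 months numbered 2857, with 487 after normexp correction, 311 with slide as a random block and 5111 without the 3 arrays. Replicate numbers did not pair the arrays, since deviations of same-numbered arrays correlated with a median of -0.09 over 25 pairs, with 2 over 0.1. Slide as a fixed block was not run for 24 against 3, 18 against 12 or 24 against 18 months, whose ages share no slide, nor for the F test. Scan day as a block and fits within a scan day were chosen after seeing the data. The block could not be fitted for the comparisons with 24 months. It gave 2 called members for 9 against 3 months, where 7.58% of all genes passed. For 12 against 9 it gave 3, with Pdia4 in place of Ddit3 (20.3% of all genes), and for 18 against 12 it gave 0 (0.81%). Within scan day 1 the counts were 4 for 9 against 3 months, where 19.2% of all genes passed, and 5 for 12 against 9, where 34.5% did and the lone 12-month array is assumed to vary like the other ages.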
